A study of Mus musculus with 9 samples.

Results

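The genes of the Polycomb repressive complexes were followed in mouse embryonic stem cells (ESC) and in the D5 and D10 lines, which were grown back from such cells after transplantation. The 10 genes were Ezh2, Ezh1, Eed, Suz12, Jarid2, Mtf2, Rnf2, Ring1, Cbx7 and Phc1. They were found by an exact match of the gene symbol in the larger deposited table of 28853 probe sets. Where a gene had several, the probe set of highest average signal stood for it. Every gene had 1 probe set except Eed, whose second probe set, with a mean log2 value of 2.96, lay below the background level of 3.68 (set by olfactory and vomeronasal receptor probe sets) and was not used.

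Polycomb complexes keep genes of development silent by modifying histones at their promoters. Polycomb repressive complex 2 (PRC2) methylates lysine 27 of histone H3 through Ezh2 or its paralogue Ezh1, and needs Eed and Suz12 for activity. Accessory subunits such as Jarid2 and Mtf2 help it to bind CpG-rich promoters. Polycomb repressive complex 1 (PRC1) ubiquitinates histone H2A through Rnf2 (also called Ring1b) or Ring1, and in its canonical form it also holds a Cbx protein, which reads the PRC2 mark, and a Phc protein. In ESCs these complexes sit on the promoters of many transcription factor genes of later lineages.

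Total RNA was measured on Affymetrix arrays, with 3 arrays for each group, and the values are deposited on a log2 scale, where a difference of 1 is a 2-fold change. The ESC line came from 3.5-day blastocysts. The labels of all 3 groups name C57BL/6×Oct4/EGFP transgenic OG2 mice, in which a transgene expresses enhanced green fluorescent protein (EGFP) under control of Oct4 sequences in pluripotent cells, and all cells were grown on feeder cells. The same label adds a CBA background strain whose number changes from array to array, so the background is not settled by the labels. After transplantation of the ESCs into mice, GFP-positive cells were sorted from bone marrow and expanded, giving the D5 line from day 5 and the D10 line from day 10. The series' design text describes 1 line per time point, while the sample titles speak of lines in the plural. Whether the replicates were separate lines or samples of 1 line is therefore not settled, and in the second case the p-values do not cover differences among independent derivations. The difference between D10 replicates 1 and 3 had an SD of 0.0686 over probe sets, below the sampling noise seen in the other pairs of arrays within groups (0.154 to 0.201). These arrays were averaged and entered as 1 sample, which gives n = 2 for D10 and n = 3 for ESC and D5.

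The promoters of the 10 genes were read from RefSeq (mouse build GRCm38.p6) as windows of 300 bases, from 250 before to 50 after an annotated transcript start. All 10 genes matched, with 12 windows, since Mtf2 and Jarid2 have 2 each. Shown are the upstream window of Mtf2 and that of Ezh1, the genes with the largest falls below, those of the PRC2 subunits Ezh2 and Suz12, which hold an E2F word, and that of the PRC1 subunit Rnf2, which did not fall. The windows lie at chr5:108065424-108065723 on the plus strand (Mtf2), chr11:101226414-101226713 on the minus strand (Ezh1), chr6:47594981-47595280 on the minus strand (Ezh2), chr11:79992856-79993155 on the plus strand (Suz12) and chr1:151500942-151501241 on the minus strand (Rnf2). Each is written 5′ to 3′ on the gene's strand, and capitals mark an E2F word or a GC box (GGGCGG), read on either strand.
Mtf2: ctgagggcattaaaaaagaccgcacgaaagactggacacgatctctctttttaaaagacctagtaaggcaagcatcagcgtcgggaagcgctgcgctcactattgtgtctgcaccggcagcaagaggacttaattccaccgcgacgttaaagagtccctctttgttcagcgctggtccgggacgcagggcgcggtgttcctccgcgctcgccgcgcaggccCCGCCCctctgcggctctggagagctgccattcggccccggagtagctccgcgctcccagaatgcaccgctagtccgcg
Ezh1: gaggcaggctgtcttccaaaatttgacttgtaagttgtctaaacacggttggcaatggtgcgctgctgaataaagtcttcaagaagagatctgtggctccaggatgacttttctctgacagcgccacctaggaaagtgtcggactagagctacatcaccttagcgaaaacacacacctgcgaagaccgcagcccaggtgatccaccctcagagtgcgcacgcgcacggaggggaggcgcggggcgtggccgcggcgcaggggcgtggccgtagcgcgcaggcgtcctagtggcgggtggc
Ezh2: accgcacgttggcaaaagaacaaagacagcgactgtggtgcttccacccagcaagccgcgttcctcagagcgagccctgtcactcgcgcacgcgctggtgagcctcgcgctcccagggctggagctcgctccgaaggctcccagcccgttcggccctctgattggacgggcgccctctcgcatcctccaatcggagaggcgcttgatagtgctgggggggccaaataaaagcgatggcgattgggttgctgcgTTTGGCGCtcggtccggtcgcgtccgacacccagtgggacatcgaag
Suz12: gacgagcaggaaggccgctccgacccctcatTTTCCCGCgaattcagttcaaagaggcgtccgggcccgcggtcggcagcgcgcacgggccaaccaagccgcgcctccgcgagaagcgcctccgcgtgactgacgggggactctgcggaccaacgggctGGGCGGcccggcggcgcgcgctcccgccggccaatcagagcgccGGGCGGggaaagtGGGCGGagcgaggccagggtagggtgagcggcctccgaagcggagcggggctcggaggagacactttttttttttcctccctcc
Rnf2: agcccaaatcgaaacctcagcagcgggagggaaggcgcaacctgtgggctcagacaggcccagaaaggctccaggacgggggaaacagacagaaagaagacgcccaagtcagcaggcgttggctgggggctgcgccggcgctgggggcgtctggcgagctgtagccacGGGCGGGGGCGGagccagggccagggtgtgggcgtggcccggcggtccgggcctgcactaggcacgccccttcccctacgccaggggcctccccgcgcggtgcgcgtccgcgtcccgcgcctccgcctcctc

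E2F factors drive genes of cell division, and 4 forms of their site were searched on both strands: TTTCCCGC, TTTGGCGC, TTTCGCGC and TTTGCCGC. A match was found in 2.26% of the 32851 promoters of the table. It was found in 2 of the 10 genes (2 of their 12 windows), TTTGGCGC in Ezh2 and TTTCCCGC in Suz12. Neither match overlapped a GC box. A GC box was found in 6 of the 10 genes (7 of the 12 windows), against 35.7% of all promoters. A CCAAT box (CCAAT, both strands, not marked) was likewise found in 6 of the 10 (7 of the 12 windows), against 37.4%. The shares of all promoters count windows, not genes. The 12 windows held 2 to 41 CpG dinucleotides, with a median of 27 against 7 over all promoters. These matches describe the letters in the windows. They were not set against the expression changes in a test.

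Most of the Polycomb genes had a lower mean signal in both re-derived lines than in ESCs. In D10, 6 of the 10 were lower by limma at an adjusted p of 0.05 (Benjamini-Hochberg, over every probe set): Mtf2, Ezh1, Ezh2, Jarid2, Suz12 and Phc1. In D5 the count was 1, Mtf2. Of all probe sets, 3.33% were called lower in D10 and 1.5% in D5. None was higher in either line by the same test. In RNA from whole cultures, fewer cells of a type and less RNA per cell cannot be told apart. The falls were small, between 1.27-fold and 1.61-fold for the 6 genes called in D10. The group means of 8 genes ran in the order ESC, D5, D10 from high to low. The exceptions were the catalytic PRC1 subunits Rnf2 and Ring1. How many of all probe sets run in that order was not computed, so this count has no background share beside it.

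**Figure D1:**
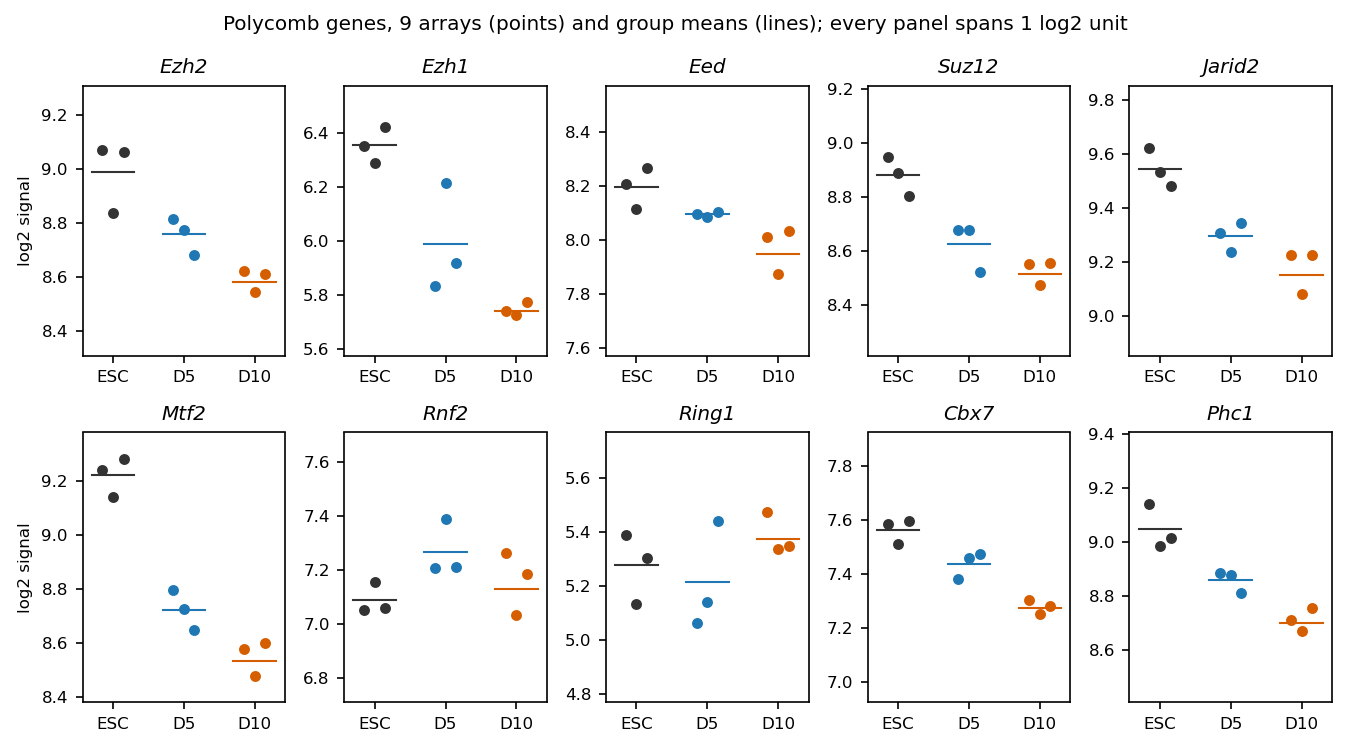
Log2 signal of each Polycomb gene (y axis) in the 3 arrays of ESC, D5 and D10 (points, replicates 1 to 3 from left to right) with the group mean (line; D10 with replicates 1 and 3 averaged first). In 8 of the 10 panels every ESC array lies above every D5 and every D10 array, while Rnf2 and Ring1 show no such order. Of all probe sets, 11% had every D5 array below every ESC array, and 16.4% had every D10 array below every ESC array.

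The catalytic subunit Ezh2 had log2 values of 9.07, 8.83 and 9.06 in ESC, 8.81, 8.77 and 8.68 in D5, and 8.62, 8.54 and 8.61 in D10. The 3 groups did not overlap, although ESC replicate 2 lay close to the highest D5 array. Ezh2 was 1.33-fold lower in D10 than in ESC (log2 change -0.41, SE 0.10, limma, adjusted p = 0.0447). In D5 its change was -0.23 (SE 0.09, limma, adjusted p = 0.246), short of the threshold.

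Its paralogue Ezh1, which in mouse tissues is known for its expression in cells that no longer divide, had log2 values of 6.35, 6.29 and 6.42 in ESC. They were 5.83, 6.21 and 5.92 in D5, and 5.74, 5.73 and 5.77 in D10. D5 replicate 2 lay near the ESC arrays and the other D5 arrays near D10, which gives D5 an SD of 0.20 (n = 3). Ezh1 was 1.53-fold lower in D10 than in ESC (log2 change -0.61, SE 0.12, limma, adjusted p = 0.0166). The D5 change of -0.37 (SE 0.11) did not pass (limma, adjusted p = 0.120). Both catalytic subunits thus had a lower signal in D10.

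Suz12, a scaffold subunit that PRC2 needs for stability, measured 8.95, 8.89 and 8.80 in ESC, 8.68, 8.68 and 8.52 in D5, and 8.55, 8.47 and 8.55 in D10. All ESC arrays were above the rest, and D5 replicate 3 lay among the D10 arrays. The change was -0.37 (SE 0.09) in D10, or 1.29-fold lower (limma, adjusted p = 0.0490), and -0.25 (SE 0.08) in D5 (limma, adjusted p = 0.163). Eed, the subunit that binds methylated H3K27, measured 8.21, 8.11 and 8.27 in ESC, 8.10, 8.09 and 8.10 in D5, and 8.01, 7.88 and 8.04 in D10. The groups of Eed did not overlap, but ESC replicate 2 and the D5 arrays were almost level. Its changes of -0.10 (SE 0.08) in D5 and -0.25 (SE 0.09, 95% interval -0.45 to -0.04) in D10 did not pass (limma, adjusted p = 0.624 and 0.157).

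Mtf2, a Polycomb-like protein that recruits PRC2 to unmethylated CpG-rich DNA, had the largest fall of the 10 genes in both lines. Its log2 values were 9.24, 9.14 and 9.28 in ESC, 8.80, 8.73 and 8.65 in D5, and 8.58, 8.48 and 8.60 in D10. The gap between ESC and D5 was wider than the spread within either group, and the D10 arrays all lay below the D5 arrays. Mtf2 was 1.41-fold lower in D5 (log2 change -0.50, SE 0.08, 95% interval -0.69 to -0.31, limma, adjusted p = 0.0157). In D10 it was 1.61-fold lower (log2 change -0.69, SE 0.09, 95% interval -0.90 to -0.47, limma, adjusted p = 0.00283). The D10 call was made under all 18 alternative settings tried, with adjusted p up to 0.0297. The D5 call was made under 13 of 18 and was lost without ESC replicate 1 (adjusted p = 0.0638), ESC replicate 3 (0.0705), D5 replicate 2 (0.0522) or D5 replicate 3 (0.0607), and in a pairwise equal-variance test adjusted over all probe sets (0.0715).

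Jarid2, an accessory subunit needed for PRC2 recruitment in ESCs, measured 9.62, 9.53 and 9.48 in ESC, 9.31, 9.24 and 9.35 in D5, and 9.23, 9.08 and 9.23 in D10. The groups did not overlap, with D5 replicate 2 just above the highest D10 array. Jarid2 was 1.31-fold lower in D10 (log2 change -0.39, SE 0.09, limma, adjusted p = 0.0352), and its change of -0.25 (SE 0.08) in D5 did not pass (limma, adjusted p = 0.163).

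The ubiquitin ligases of PRC1 did not pass the test in either line. Rnf2, the main ligase of ESCs, measured 7.05, 7.16 and 7.06 in ESC, 7.21, 7.39 and 7.21 in D5, and 7.27, 7.03 and 7.19 in D10. Every D5 array was above every ESC array, and the D10 arrays overlapped both groups. Its changes of 0.18 in D5 (95% interval -0.03 to 0.39) and 0.04 in D10 (-0.19 to 0.27) did not pass (limma, adjusted p = 0.386 and 0.895). Ring1 measured 5.39, 5.13 and 5.30 in ESC, 5.06, 5.14 and 5.44 in D5, and 5.47, 5.34 and 5.35 in D10, with overlap between all groups. Its changes were -0.06 in D5 (95% interval -0.33 to 0.21) and 0.10 in D10 (-0.20 to 0.40; limma, adjusted p = 0.862 and 0.759). The intervals of these ligases leave room for changes of either sign, and whether they differ from the changes of the PRC2 genes was not tested.

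Phc1, a Polyhomeotic protein of canonical PRC1 that can join into chains, measured 9.14, 8.99 and 9.01 in ESC, 8.89, 8.88 and 8.81 in D5, and 8.71, 8.67 and 8.75 in D10. Its groups were separate and in the order ESC, D5, D10. Phc1 was 1.27-fold lower in D10 (log2 change -0.35, SE 0.09, limma, adjusted p = 0.0477), against a change of -0.19 (SE 0.08) in D5 (limma, adjusted p = 0.279). Cbx7, the chromodomain protein of canonical PRC1 most used in ESCs, measured 7.58, 7.51 and 7.60 in ESC, 7.38, 7.46 and 7.47 in D5, and 7.30, 7.25 and 7.28 in D10. Its groups were also separate in the same order. Its D10 change of -0.29 (SE 0.08, 95% interval -0.48 to -0.10) did not pass (limma, adjusted p = 0.0714), nor did the D5 change of -0.13 (SE 0.08, limma, adjusted p = 0.471).

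**Figure D2:**
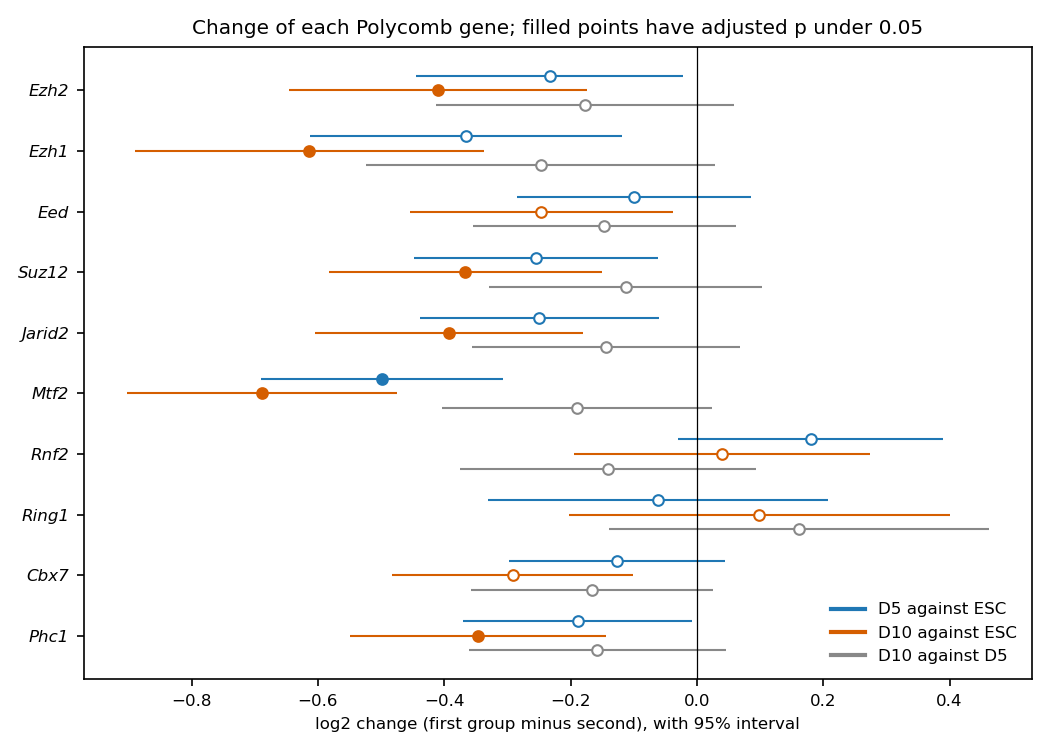
Log2 change of each Polycomb gene (x axis) with its 95% interval from the limma fit, for D5 against ESC (blue), D10 against ESC (orange) and D10 against D5 (grey); filled points passed an adjusted p of 0.05. Filled are Mtf2 in D5 and 6 genes in D10, and no gene is filled for D10 against D5.

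For D5 against ESC, 1 of the 10 genes was called lower and 0 higher, where 1.5% of all probe sets were called lower and 2.36% higher. Among the 11112 probe sets at least as bright as the dimmest of the 10 genes, 2.54% were called lower. In 8 genes every D5 array lay below every ESC array, which was the case for 11% of all probe sets. The median change of the 10 genes was -0.21, against -0.01 over all probe sets.

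For D10 against ESC, 6 of the 10 were called lower and 0 higher, where 3.33% of all probe sets were called lower and 5.32% higher. Of the probe sets at least as bright as the dimmest of the 10, 6.07% were called lower. In 8 genes every D10 array lay below every ESC array, against 16.4% of all probe sets. The median change of the 10 genes was -0.36, against -0.02 over all probe sets. The arrays of ESC enter both comparisons, so the D5 and D10 changes are not independent of each other.

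The number called in D10 depended on single arrays. It was 1 without ESC replicate 1, 3 without ESC replicate 2, 1 without ESC replicate 3 and 1 without D10 replicate 2, where the remaining D10 sample was assumed to vary like the other groups. It was 2, 3 and 4 without D5 replicates 1, 2 and 3, which enter through the shared estimate of the spread, 5 without D10 replicate 1 and 6 without D10 replicate 3. Median centring of the arrays gave 2, a fit of only the ESC and D10 arrays 2, and array weights 3. Over all probe sets these settings called 2187, 1582 and 2298, against 2496 in the main fit. The remaining call was Mtf2 in each case with 1 call, and Ezh1 was called under 15 of the 18 alternatives, failing without ESC replicate 1 (adjusted p = 0.0511), ESC replicate 3 (0.0600) or D10 replicate 2 (0.0987). Jarid2, Suz12, Ezh2 and Phc1 were called under 10, 9, 8 and 7 of the 18, and Cbx7 under 4. Jarid2 was not called without any 1 of the ESC arrays, D5 replicate 1 or D10 replicate 2 (adjusted p 0.0628 to 0.174), nor Suz12 without any 1 of the ESC arrays, D5 replicates 1 or 2 or D10 replicate 2 (0.0636 to 0.196). Ezh2 was not called without ESC replicates 1 or 3, any 1 of the D5 arrays or D10 replicate 2 (0.0570 to 0.188), nor Phc1 without any 1 array other than D10 replicate 3 (0.0549 to 0.182). The sign of the D10 change was the same under all 18 alternatives for each of the 10 genes.

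The authors' deposited table lists a step-up p-value below 0.05 for 5 of the 10 genes in D10 against ESC. In the authors' deposited table these were Ezh1 (0.0104), Mtf2 (0.0145), Cbx7 (0.0203), Suz12 (0.0359) and Phc1 (0.0466), while Jarid2 (0.0534) and Ezh2 (0.0746) lay above it. For D5 against ESC the lowest value of the 10 genes in the authors' deposited table was 0.0715, for Mtf2. Those values matched an equal-variance test of 3 arrays against 3, which counts D10 replicates 1 and 3 separately. Of all 28853 probe sets, that test called 2216 in D10 against ESC and 247 in D5 against ESC, in either direction. Mtf2, Ezh1, Suz12 and Phc1 thus passed both kinds of test in D10.

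Between the re-derived lines no Polycomb gene passed the test. The changes of D10 against D5 ran from -0.25 for Ezh1 to 0.16 for Ring1, and 9 of 10 were negative (limma, adjusted p from 0.570 to 0.790). The share of negative changes over all probe sets was not computed, so this count of signs has no background beside it. Without adjustment, 0 of the 10 had p under 0.05 in limma and 4 in the pairwise equal-variance test. The pairwise test counted as separate samples the D10 arrays that were averaged for limma. These unadjusted counts were not set against the share of all probe sets, so whether they exceed it was not tested. In 7 genes every D10 array was below every D5 array, against 8.84% of all probe sets, and the median change was -0.15 against -0.00 over all probe sets. Calls were few in this comparison as a whole, with 0.0208% of probe sets called lower and 0.194% higher. The 95% interval of the D10 against D5 change included 0 for each of the 10 genes.

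The other subunits of the complexes were read from lists of Polycomb genes by role. Beside the counts of every list below stand the shares of all probe sets called. These were 1.5% lower and 2.36% higher in D5, and 3.33% lower and 5.32% higher in D10. Of 6 PRC2 core genes 3 fell in D10, all among the 10 genes above. The histone-binding subunits Rbbp4 and Rbbp7, which PRC2 shares with other chromatin complexes, had changes of -0.33 (SE 0.10) and 0.15 (SE 0.09) in D10 and did not pass (limma, adjusted p = 0.0717 and 0.418). Of 9 PRC2 accessory genes Mtf2 and Jarid2 fell in D10 and the other 7, Phf1, Phf19, Aebp2, Epop, Lcor, Lcorl and Ezhip, did not pass. Epop, a subunit known from mouse ESCs, measured 7.94 ± 0.08 in ESC (SD, n = 3), 7.81 ± 0.02 in D5 (n = 3) and 7.73 ± 0.06 in D10 (n = 2; log2 change in D10 -0.21, limma, adjusted p = 0.224). Across the 7 accessory genes outside the 10, the median D10 change was -0.02, and over all probe sets it was likewise -0.02.

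Of 13 measured genes of the PRC1 ligases and canonical PRC1, 1 rose and 1 fell in D10. The gene that rose was Bmi1 (Pcgf4), a partner of the RING ligases known from adult stem cells. Bmi1 had log2 values of 3.93, 4.26 and 4.36 in ESC, 4.51, 4.53 and 4.44 in D5, and 4.90, 4.68 and 4.80 in D10. Its groups were separate and in the order opposite to that of most Polycomb genes. Bmi1 was higher in D10 by 0.59 (SE 0.13, limma, adjusted p = 0.0300) and its D5 change of 0.31 (SE 0.12) was not called (limma, adjusted p = 0.226). The D10 call was made under 12 of 18 alternatives and lost without ESC replicate 1 (adjusted p = 0.0512), ESC replicate 2 (0.0600), D5 replicate 1 (0.0545) or D10 replicate 2 (0.0848). Its paralogue Pcgf2, which has the same place in the complex, had a D10 change of -0.26 (SE 0.11) that did not pass (limma, adjusted p = 0.223). The difference between the changes of these paralogues was not tested. The fall was that of Phc1.

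Of 25 genes of variant PRC1, 1 fell in D5 and 3 in D10, and none rose. Lower calls made up 1.5% of all probe sets in D5 and 3.33% in D10, or 2.54% and 6.07% of the brighter probe sets described above. The list medians were -0.04 in D5 and -0.05 in D10, against -0.01 and -0.02 over all probe sets. L3mbtl2, a reader protein of the variant complex with Pcgf6, measured 8.48, 8.37 and 8.44 in ESC, 7.81, 7.94 and 7.70 in D5, and 7.85, 7.75 and 7.74 in D10. The arrays of both re-derived lines overlapped and lay well below ESC. L3mbtl2 fell by 0.62 on the log2 scale in D5 (SE 0.09, limma, adjusted p = 0.00747) and by 0.66 in D10 (SE 0.10, limma, adjusted p = 0.00437). Mga, the DNA-binding partner in the same complex, changed by -0.49 in D10 (SE 0.10, limma, adjusted p = 0.0215). Wdr5, shared between this complex and the Trithorax group complexes, changed by -0.41 (SE 0.08, limma, adjusted p = 0.0199). The D10 call of L3mbtl2 was made under all 18 alternatives, that of Mga under 13 and that of Wdr5 under 15. Without D10 replicate 2 the adjusted p was 0.130 for Mga and 0.0950 for Wdr5. Without ESC replicate 1 it was 0.0643 for Mga and 0.0621 for Wdr5, Mga also lost its call without ESC replicate 2 (0.0533), and Wdr5 also without ESC replicate 3 (0.0561).

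Enzymes that remove the Polycomb marks and the Asxl cofactors of the deubiquitinase Bap1 were measured as 8 genes, of which 1 rose in D10. The H3K27 demethylase genes Kdm6a and Kdm6b had D10 changes of -0.11 and -0.15 (limma, adjusted p = 0.831 and 0.577). The gene that rose was Uty, the Y-linked relative of Kdm6a, at 3.09, 2.93 and 3.20 in ESC, 3.27, 3.03 and 3.30 in D5, and 5.62, 5.18 and 5.57 in D10. The ESC and D5 means lay below the background level of 3.68, so Uty was at least 3.27-fold higher in D10 than in either (limma, adjusted p = 1.00e-04 against ESC and 0.00225 against D5). The bound sets the D10 mean against the background level. The D10 arrays carried signal from this Y-linked gene and the ESC and D5 arrays did not rise above the background.

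**Figure D3:**
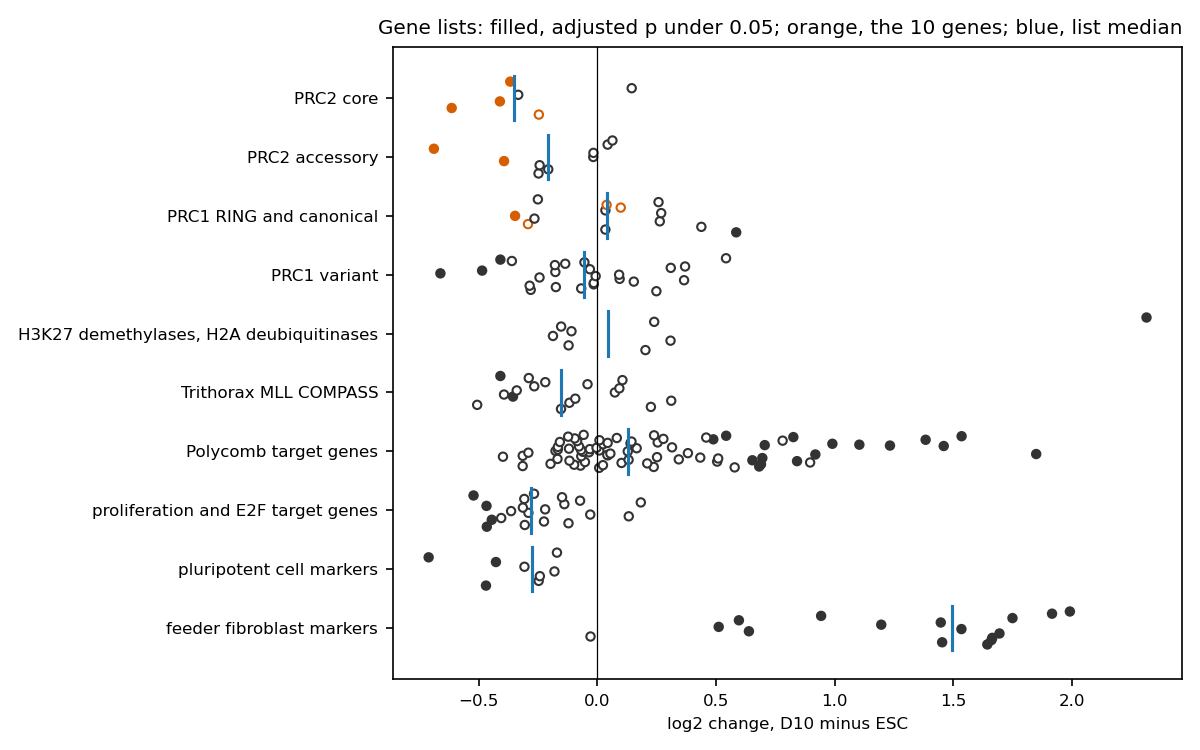
Log2 change of D10 against ESC (x axis) for every measured gene of the lists named on the y axis; filled points passed an adjusted p of 0.05 in limma, orange points are the 10 Polycomb genes and the blue bar is the list median. Calls among the PRC2 and variant PRC1 genes lie left of 0, and calls among the Polycomb target genes and fibroblast markers lie right of it.

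Genes that Polycomb complexes are known to occupy in mouse ESCs, outside the Hox clusters, were measured as 75 genes, of which 63 had a mean above the background level. In D5, 11 were higher, 0 lower and 64 did not pass. In D10, 17 were higher, 0 lower and 58 did not pass. Among all probe sets, 2.36% were called higher in D5 and 5.32% in D10. The list medians were small, at 0.08 in D5 and 0.13 in D10, against -0.01 and -0.02 over all probe sets. Wnt5a, a secreted signal of mesenchyme, went from 4.86 ± 0.05 in ESC (SD, n = 3) to 5.89 ± 0.10 in D5 (n = 3) and 6.40 ± 0.02 in D10 (n = 2; limma, adjusted p = 5.66e-04 and 8.31e-05). Prrx1, a transcription factor of limb and connective tissue mesenchyme, went from 6.45 ± 0.04 to 7.37 ± 0.06 and 7.91 ± 0.06 (limma, adjusted p in D10 = 8.31e-05). The 3 groups of arrays did not overlap for either gene.

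Meis2, a homeobox partner of Hox proteins, was below the background level in ESC and at least 1.79-fold higher in D5 and 2.74-fold higher in D10 (limma, adjusted p = 0.00182 and 2.13e-04). Tbx15, a T-box factor of mesenchyme, was higher by 1.09 in D5 on the log2 scale (SE 0.14, limma, adjusted p = 0.00460). The target genes named here by size are also known from fibroblasts and other mesenchyme, and the labels say that all cultures grew on feeder cells without naming their type.

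Fibroblast markers had the largest median change of the 11 lists in both lines. Of 16 markers, 11 rose in D5 and 15 in D10, with median changes of 0.87 and 1.49. Their summed linear signal was 3491 to 4006 in the ESC arrays, 5773 to 6413 in D5 and 8439 to 8730 in D10, and no marker had an ESC mean below the background level. Col1a1, a fibrillar collagen, measured 8.86 ± 0.17 in ESC (SD, n = 3), 9.80 ± 0.16 in D5 (n = 3) and 10.31 ± 0.02 in D10 (n = 2). Thy1, a surface protein of fibroblasts, was higher by 1.28 in D5 and by 1.99 in D10 (limma, adjusted p = 3.02e-04 and 3.37e-05). In D5 the smooth muscle actin Acta2 rose by 1.17 and the collagen Col3a1 by 1.10 (limma, adjusted p = 8.65e-04 and 3.86e-04). In D10 the matrix proteins Thbs1 and Postn rose by 1.92 and 1.75 (limma, adjusted p = 1.74e-04 and 2.66e-04).

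The pluripotent markers moved the other way. Their summed signal was 10323 to 10803 in ESC, 7904 to 8443 in D5 and 7618 to 7820 in D10, and of 8 genes 4 fell in D5 and 3 in D10. All 8 were above the background level in every group. Tdgf1 (Cripto), a co-receptor of Nodal, changed by -0.52 in D5 and -0.71 in D10 (limma, adjusted p = 0.0130 and 0.00234). Its D10 call was made under all 18 alternatives and its D5 call under 16, not without ESC replicate 1 (adjusted p = 0.0560). Dppa5a, an RNA-binding protein of pluripotent cells, changed by -0.37 in D5 and -0.47 in D10 (limma, adjusted p = 0.0346 and 0.0110). Its D10 call was made under 17 alternatives, not without D10 replicate 2 (0.0587), and its D5 call under 7, not without any 1 of the ESC or D5 arrays or D10 replicate 2 (up to 0.106). Pou5f1 (Oct4) measured 10.75 ± 0.08 in ESC (SD, n = 3), 10.56 ± 0.01 in D5 (n = 3) and 10.44 ± 0.10 in D10 (n = 2), and neither its change of -0.19 nor that of -0.31 was called (limma, adjusted p = 0.302 and 0.0796). Nanog changed by -0.43 in D5 (limma, adjusted p = 0.0156), with a change of -0.18 in D10 that did not pass (adjusted p = 0.244). Sox2 changed by -0.35 and -0.43 (limma, adjusted p = 0.0439 and 0.0185). In D5 the calls of Nanog and Sox2 were made under 13 and 7 of the 18 alternatives. Nanog lost it without any 1 of the ESC arrays or D5 replicates 1 or 3 (adjusted p up to 0.0676), and Sox2 without any 1 of the ESC or D5 arrays or D10 replicate 2 (up to 0.131). Sox2 lost its D10 call without ESC replicates 1 or 3 or D10 replicate 2 (up to 0.0995).

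Genes of the cell cycle and E2F targets, a group to which Ezh2 is known to belong, were lower in part. Of 20 genes, 3 fell in D5 and 4 in D10, with medians of -0.25 and -0.28, and their summed signal was 11216 to 11727 in ESC, 9229 to 10175 in D5 and 9244 to 9876 in D10. Top2a, a topoisomerase of dividing cells, changed by -0.51 and -0.52 (limma, adjusted p = 0.0195 and 0.0149), and Mcm6, a subunit of the replicative helicase, by -0.40 and -0.47 (limma, adjusted p = 0.0323 and 0.0151). Without D10 replicate 2 the D10 calls were lost for both (adjusted p = 0.101 and 0.0879), and without ESC replicate 1 also for Top2a (0.0511). The D5 calls were lost without ESC replicates 1 or 3 or D5 replicates 1 or 3 for Top2a (0.0642 to 0.0779) and without any 1 ESC or D5 array for Mcm6 (0.0556 to 0.105). Mcm5, another helicase subunit, changed by -0.33 in D5 (limma, adjusted p = 0.0469), a call made under 8 of 18 alternatives and lost without any 1 of the ESC or D5 arrays or D10 replicate 2 (up to 0.148). Aurkb, a kinase of mitosis, changed by -0.47 in D10 (limma, adjusted p = 0.0144), a call lost only without D10 replicate 2 among the 18 alternatives (0.0849). Mki67, the Ki-67 antigen of dividing cells, had changes of 0.14 and 0.18 that did not pass (limma, adjusted p = 0.543 and 0.377). Of 13 blood cell markers, 9 had a mean below the background level, among them Ptprc (CD45), at 3.04, 2.98 and 2.96 in the 3 groups. The part of fibroblast, pluripotent and cell cycle signal in the Polycomb changes was not tested.

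**Figure D4:**
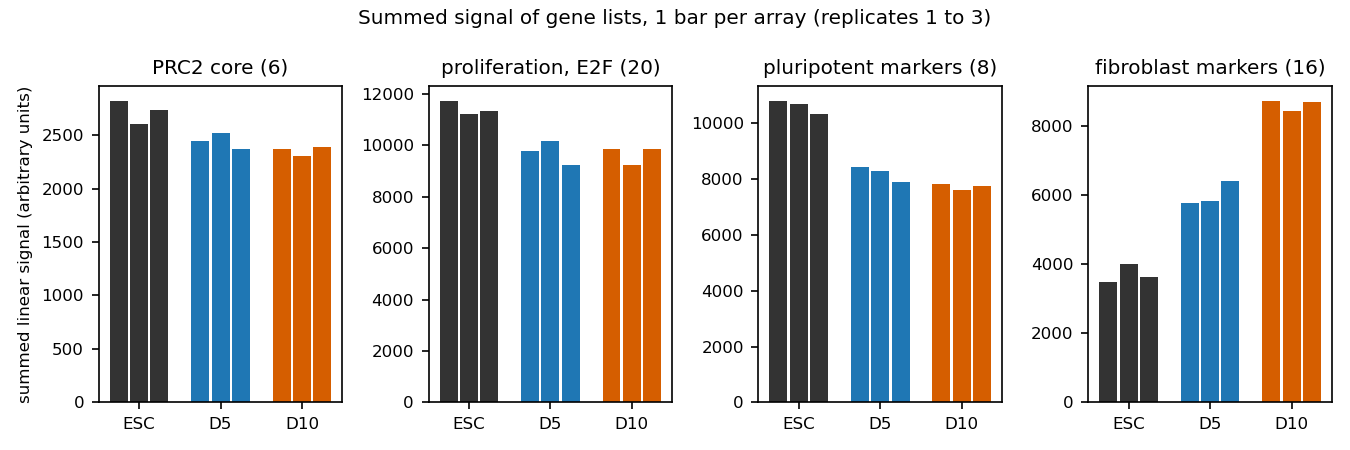
Summed linear signal (y axis, arbitrary units, from 0) of the PRC2 core genes, the proliferation and E2F targets, the pluripotent markers and the fibroblast markers, with 1 bar for each array (replicates 1 to 3 of ESC, D5 and D10). The PRC2 core sum was 2600 to 2818 in ESC, 2368 to 2519 in D5 and 2304 to 2387 in D10, while the fibroblast sum rose from 3491 to 4006 in ESC to 8439 to 8730 in D10.

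The genes whose pattern over the 9 arrays was most like that of Mtf2 were read by Pearson's r among 2382 probe sets above the background level whose group means spanned at least 0.5. They were Slc37a1, a solute carrier (r = 0.991), Pnp2, a purine nucleoside phosphorylase (0.991), Afg1l, a mitochondrial ATPase listed as Lace1 in the file (0.989), Tfrc, the transferrin receptor (0.989), and Dnajc6, the clathrin uncoating protein auxilin (0.988). Tfrc had group means of 9.68 in ESC, 8.86 in D5 and 8.68 in D10. These correlations describe 9 arrays that fall into 3 groups, and any gene with the same order of groups scores high.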

How the data were processed

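The 9 Affymetrix arrays were assigned to ESC, D5 and D10 by their titles, 3 to each. The submitters' processing notes name MAS5 without a version, and how arrays were normalized to each other is not given. The authors deposited log2 values, from 0.70 to 13.82 with array medians of 4.45 to 4.53. The authors' short table of 461 probe sets holds the linear intensity of the same values, and the authors' larger table also gives step-up p-values, which matched a pairwise t-test within 5% in 100% of probe sets. No columns of samples were left unused.

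Both log2 tables held the same values. Each comparison was tested with the lmFit and eBayes functions of limma 3.58.1 (R 4.3.3, two-sided) on all 28853 probe sets and 8 samples, D10 replicates 1 and 3 being averaged, with 5 residual and 3.56 prior degrees of freedom and Benjamini-Hochberg adjustment over all probe sets (threshold 0.05). As background level served 3.68, which 95% of 1397 probe sets for olfactory or vomeronasal receptors do not exceed on average. The number of arrays limits the precision. The fits were checked on simulated data. Probe sets were named through the RefSeq gene table of GRCm38.p6, and 210 of 211 names on the 11 gene lists matched a probe set.

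The members and the lists were chosen with earlier results of these data known. All 10 Polycomb genes are named, then up to 3 genes per list and comparison with the largest change among those past the threshold without overlap between groups, 5 genes most like the gene with the widest range, and Pou5f1, Nanog, Sox2, Col1a1, Thy1, Mki67 and Ptprc as markers. Rbbp4, Rbbp7, Phf1, Phf19, Aebp2, Epop, Lcor, Lcorl, Ezhip, Pcgf2, Kdm6a and Kdm6b fall outside that rule and were chosen after their values were seen. Alternatives were arrays normalized by quantiles or centred on their medians, a filter removing the dimmest 30% of probe sets, eBayes with trend and robust options, fits of each comparison's arrays alone, weighted arrays, all 9 arrays as separate samples, a replicate block, a pairwise equal-variance t-test, and each array left out in turn.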

Additional observations from a re-analysis of the deposited data

Results flagged for a closer look

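Among the genes named by rule, 6 differed between D10 and D5 in the direct test of these lines, and none of them is a subunit of a Polycomb complex. Uty, the Y-linked relative of the H3K27 demethylase Kdm6a, had a measured log2 difference of 2.19 (limma, adjusted p = 0.00225). Since D5 lay below the background level, it was at least 3.27-fold higher in D10. The call was made under 16 of 18 alternatives (highest adjusted p 0.117). Runx1, a transcription factor of blood and mesenchyme and a known Polycomb target in mouse ESCs, was higher in D10 by 0.59 (limma, adjusted p = 0.0466), at 5.03, 4.92 and 5.05 in D5 and 5.59, 5.62 and 5.52 in D10. That call was made under 6 of 18 alternatives (highest adjusted p 0.224) and was lost when any 1 array other than D10 replicate 3 was left out (adjusted p 0.0571 to 0.216).

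The fibroblast markers Thbs1, Lox, Col1a2 and Thy1 were higher in D10 than in D5 by 1.03, 0.97, 0.77 and 0.71 (limma, adjusted p = 0.0463, 0.0110, 0.0457 and 0.0457). These calls were made under 8, 14, 7 and 7 of the 18 alternatives. Lox lost its call without D5 replicate 1, D5 replicate 3 or D10 replicate 2 (adjusted p 0.0622 to 0.135). Thbs1 lost it without any 1 array other than ESC replicate 2 and D10 replicate 3 (0.0503 to 0.181), and Col1a2 and Thy1 without any 1 array other than D10 replicate 3 (0.0503 to 0.211 and 0.0503 to 0.177). Their summed list signal was 5773 to 6413 in the D5 arrays and 8439 to 8730 in the D10 arrays.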

How the results depend on the processing

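Over the 18 alternatives, the log2 changes of the 10 Polycomb genes kept their side of the threshold in 487 values, most of which were never called. A call was lost in 46 values and gained in 7, and no called change turned its sign. Only calls of the main fit could be lost, and these were 1 in D5, 6 in D10 and 0 in D10 against D5. For D5 against ESC, the count of Polycomb genes went from 1 to 3 under eBayes with trend and robust options, which gave 1695 probe sets in place of 1116, and to 0 in the pairwise t-test, which gave 247 probe sets. Leaving out 1 array gave 0 to 1 Polycomb genes and 457 to 1091 probe sets. For D10 against ESC, the count of 6 became 2 with median centring (2187 probe sets in place of 2496). It was 2 when only ESC and D10 arrays were fitted (1582 probe sets) and 3 with array weights (2298 probe sets). The 9 arrays counted separately gave 3977 probe sets. Leaving out 1 array gave 1 to 6 Polycomb genes and 1188 to 2507 probe sets. For D10 against D5, no setting called a Polycomb gene, while the 62 probe sets became 154 without the lowest 30%, 268 with an intensity trend, 2 with only the groups compared, 29 with array weights, 517 with 9 arrays counted separately, 35 in the t-test and 4 to 56 without 1 array. Fewer samples enter where an array other than D10 replicate 1 or 3 is left out. Without either of these 2, which the main fit averages, the number of samples stays at 8. The cause of the other shifts was not tested.

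The replicate numbers do not pair the samples: same-numbered arrays had correlations of their deviations between -0.30 and 0.19. With the replicate number as a block on the 9 arrays, 1, 6 and 0 Polycomb genes and 938, 3199 and 193 probe sets were called in D5 against ESC, D10 against ESC and D10 against D5. All 10 Polycomb genes had group means above the background level, and Ring1, with the lowest mean signal of the 10 (5.29), also had the widest SE (0.12 in D5 and 0.13 in D10 against ESC). A planned comparison of protein sequences was not run.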

Other observations

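The Trithorax and COMPASS genes, which counteract Polycomb silencing by methylating histone H3 at active promoters, were measured as 17 genes. Cxxc1, the CpG-binding subunit, was higher in D5, at 6.58 ± 0.02 (SD, n = 3) against 6.06 ± 0.09 in ESC (n = 3; limma, adjusted p = 0.0110), and it measured 6.28 ± 0.05 in D10 (n = 2; adjusted p = 0.188). That D5 call was made under 16 of 18 alternatives and was lost without D5 replicate 1 (adjusted p = 0.0505). The methyltransferase Kmt2b measured 7.45 ± 0.03 in ESC, 7.46 ± 0.07 in D5 and 7.10 ± 0.06 in D10, a D10 change of -0.36 (limma, adjusted p = 0.0399). That call was made under 11 of 18 alternatives and was lost without each ESC array, D5 replicate 1 or D10 replicate 2 (adjusted p 0.0695 to 0.171). Among the 17 genes, 1 rose in D5, 2 fell in D10 (Kmt2b and Wdr5) and none was called in D10 against D5. The shares of all probe sets were 2.36% called higher in D5 and 3.33% called lower in D10. The list medians were -0.001 in D5 and -0.15 in D10, against -0.01 and -0.02 over all probe sets. For D10 against D5 the list median was -0.13, against -0.00 over all probe sets.

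Of the blood cell markers above the background level, Cd34, a surface protein also found on vessels and stroma, was higher in D5 by 0.69 and in D10 by 1.10 (limma, adjusted p = 0.0111 and 8.93e-04). The D5 call was made under 17 of 18 alternatives, not without ESC replicate 3 (adjusted p = 0.0504). Laptm5, a lysosomal protein of blood cells, fell by 1.29 on the log2 scale in D10 against ESC (limma, adjusted p = 7.34e-04). No blood cell marker was called lower in D5.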
